A study of Sus scrofa with 8 samples.

Results

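Myostatin (MSTN), its binding proteins follistatin (FST) and follistatin-like 3 (FSTL3), and the activin type IIB receptor (ACVR2B) were followed in single-cell RNA sequencing of pig somites and myotomes. The 4 genes were taken by name from the 21301 genes of the count matrices. Each was measured in all 8 libraries, which held 74147 cells after filtering.

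Somites were collected on embryonic day (E) 16, 18 and 21 and the myotome, the muscle-forming compartment of the somite, on E28. At each stage 1 library came from Tibetan pigs (ZZ) and 1 from Duroc and Tibetan crossbreds (DZ), both made from a pool of 5 embryos of 1 sow. The libraries are called E16-ZZ, E16-DZ and so on. E16 and E18 are called early and E21 and E28 late, so that 4 libraries of 2 stages stood in for replicates in each period, and the p-values measured the spread between these libraries. E28 was the only stage sampled as myotome, so its age and its tissue cannot be told apart.

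Myostatin is a secreted ligand of the TGF-β family that restrains skeletal muscle mass, and its loss gives the double-muscled cattle breeds. It is made as a precursor, is released from its propeptide by proteases, and binds activin type II receptors, which pass the signal through type I receptors to SMAD2 and SMAD3. Follistatin and FSTL3 bind myostatin and activins outside the cell and keep them from the receptors.

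In RefSeq annotation of Sscrofa11.1, the build on which the counts were made, MSTN (ENSSSCG00000016047) lies on chr15:94623526-94628440 on the minus strand and has 3 exons. FST (ENSSSCG00000016892) lies on chr16:32806341-32811382 on the plus strand, FSTL3 (ENSSSCG00000037102) on chr2:77656655-77662608 on the minus strand, and ACVR2B (ENSSSCG00000011257) on chr13:23237699-23276086 on the plus strand. The RefSeq transcript read here held 0 bases outside the coding part for MSTN, 5 for FST and 22 for ACVR2B, against 1026 for FSTL3. Libraries of this kind read the 3′ ends of transcripts, so each gene was compared only with itself.

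Levels are given as CPM, the UMIs (distinct RNA molecules) of the gene scaled to a total of 1e6 UMIs in the summed cells. Kept libraries held 39852689 to 57568895 UMIs in 5436 to 10956 cells, with medians of 3405 to 6161 UMIs per cell. In E16-ZZ, 39.2% of barcodes passed the mitochondrial limit and were removed, against 1.05 to 9.15% in the other libraries. A total of 1001 barcode sequences occurred in more than 1 library. Cells were placed in gates by the markers they held: PAX3+ progenitors (1721 cells), MYF5+ cells (2860), MYOD1+ cells (1300) and a myocyte gate (1796), together called the muscle gates (7677 cells, 10.4%), and 13 gates of other cell types. The remaining cells included 40056 that met no gate. MYOD1+ cells had MYOD1 detected and lay outside the myocyte gate. MYF5+ cells had MYF5 but neither MYOD1 nor MYOG detected, and also lay outside it. PAX3+ progenitors had PAX3 and any of TCF15, MEOX1, DMRT2 and PRTG detected, but not MYF5, MYOD1 or MYOG.

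MSTN was close to absent on E16 and E18 and present from E21 on. In all cells of a library it was at 0.0251 (ZZ) and 0.0696 (DZ) on E16 and 0.0869 (ZZ) and 0.0568 (DZ) on E18, which together were 13 UMIs. It was at 12.9 (ZZ) and 14.6 (DZ) on E21 and 24.7 (ZZ) and 18.9 (DZ) on E28, together 3095 UMIs. All 4 late libraries lay above all 4 early ones. The difference was 7.95 ± 0.40 on the log2 scale (SE, adjusted p = 0.000322, edgeR's quasi-likelihood test with Benjamini-Hochberg adjustment), in a comparison in which 34.3% of the 14337 genes tested passed the threshold of 0.05. With stage as a number of days it was 0.66 per day on the log2 scale and not called (adjusted p = 0.0816). Over pooled UMIs the late level was 282 times the early one, with a 95% interval from counting error alone of 165 to 531. In a sum over all cells, fewer cells of a type and less RNA per cell cannot be told apart, so the muscle gates were summed on their own.

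Within the muscle gates MSTN stood at 0 in both E16 libraries and at 0.363 (ZZ) and 0.573 (DZ) on E18, resting on 5 UMIs in all. The late values were 89.5 (ZZ) and 88.0 (DZ) on E21 and 115 (ZZ) and 56.9 (DZ) on E28. The periods did not overlap, and the difference was 7.99 ± 0.40 on the log2 scale (SE, adjusted p = 3.01e-05, edgeR), where 28.5% of 10919 genes were past the threshold. The interval of the pooled ratio ran from 104 to 750.0, as the early value rests on so few molecules. Without E18-DZ the fitted difference was 8.72 (adjusted p = 0.000238), and with stage as days it was 0.41 per day and not called (adjusted p = 0.165).

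The mix of the muscle gates differed between periods. PAX3+ progenitors were 58.7 to 92.6% of muscle-gate cells in the early libraries and 0.617 to 17.5% in the late ones, and the myocyte gate was 0 to 10.9% of them early and 25.1 to 34.2% late. Differences between periods in the sum of the muscle gates therefore include this change of mix.

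Most MSTN molecules of the late libraries were in the muscle gates, with 2476 of 3095 UMIs (80.0%). Cells in no gate held 9.50%, and cells left out because they met both a muscle gate and another one held 5.33%. Against all other cells of the same library the muscle gates were 4.81 ± 0.28 higher on the log2 scale (SE, adjusted p = 1.01e-05, edgeR, 8 libraries), in a comparison that called 19.2% of 12911 genes. This size rests mostly on the late libraries. The muscle gates held 0 MSTN UMIs in both E16 libraries, and 2 (ZZ) and 3 (DZ) on E18. The other cells held 1 (ZZ) and 2 (DZ) on E16, and 3 (ZZ) and 0 (DZ) on E18. In the late libraries MSTN was detected in 16.7 to 33.6% of muscle-gate cells, and in 8.60 to 17.5% when each cell was thinned to 2000 UMIs. No erythroid-gate cell held a MSTN UMI in any library. For the late libraries this was 0 of 188 cells, at median depths of 5697 to 13311 UMIs, which allows up to 1.60% of cells with a UMI and sets no limit on cells that express the gene. In the endothelial gate 1 of 275 late cells held one.

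A low MSTN level was seen in the late neuron gate, at 4.72 (ZZ) and 6.29 (DZ) on E21 and 27.4 (ZZ) and 8.71 (DZ) on E28. These were 77 UMIs in 69 of 2989 cells, with at most 2 in any cell. The neuron value in each library was above the endothelial and erythroid ones and below the muscle-gate one. A floor of 3 UMIs in the erythroid gate would be 7.88 in E21-ZZ and 9.96 in E28-DZ. Both are above the neuron values there, so the erythroid zeros give no ranking in these libraries. The E28-ZZ neuron value rested on 8 UMIs from 52 cells. Late MSTN levels ran from 1.40 to 5.03 in the neural-crest gate and from 2.6 to 8.2 in cells of no gate. The 6 myocyte markers present summed to 0 to 5.59 in the early neuron gate and to 27.1 to 109 in the late one. In the late erythroid gate, which held no MSTN UMI, they summed to 21.0 to 120, against 3420 to 4585 in the late muscle gates. The source of the MSTN UMIs in the neuron gate was not tested.

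**Figure D1:**
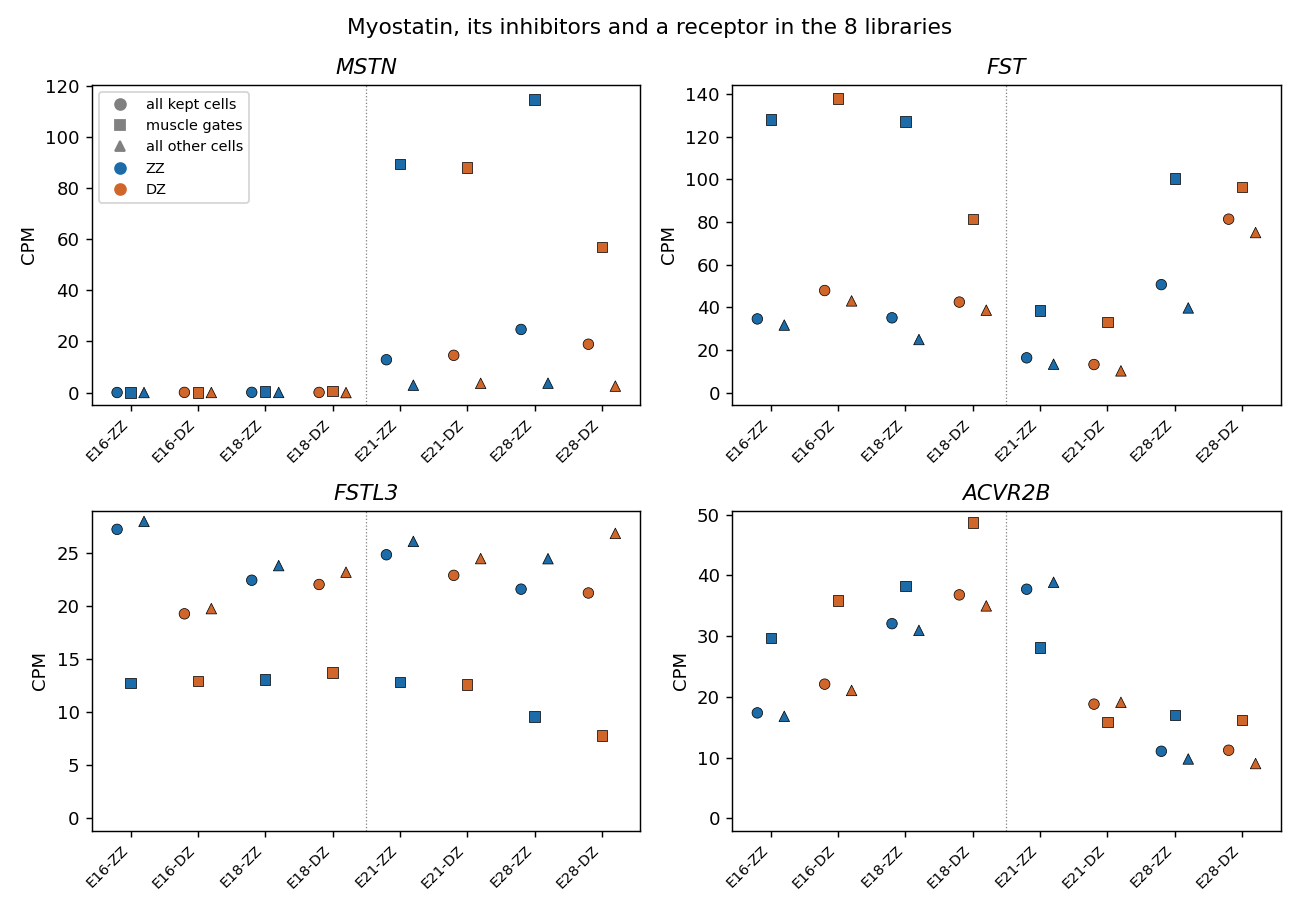
Levels of the 4 genes in CPM (y axis, linear) in each library (x axis), for all kept cells (circles), the muscle gates (squares) and all other cells (triangles), with ZZ in blue and DZ in orange and a dotted line between E18 and E21. MSTN rose to 56.9 to 115 in the late muscle gates, and FSTL3 lay lower in the muscle gates than in the other cells of every library.

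Among the muscle gates, MSTN was low in PAX3+ progenitors and higher in the later ones. In MYF5+ cells it was 76.0 (ZZ) and 78.3 (DZ) on E21 and 121 (ZZ) and 42.6 (DZ) on E28. In PAX3+ progenitors it was 5.54 (ZZ) and 31.3 (DZ) on E21. On E28 the ZZ value rested on 1 UMI from 23 cells, under the floor of 3 UMIs, which would be 29.2 there, and E28-DZ had too few cells for a sum. MYF5+ cells were above PAX3+ progenitors in each of these 3 libraries, by 2.30 ± 0.40 on the log2 scale over all libraries (SE, adjusted p = 0.000496, edgeR), where 5.73% of 10231 genes were called. The difference was 1.59 without E21-ZZ (adjusted p = 0.0333) and 3.20 without E21-DZ (adjusted p = 0.000744).

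MYOD1+ cells, which had a sum in the late libraries only, held MSTN at 66.1 (ZZ) and 60.1 (DZ) on E21 and 122 (ZZ) and 41.1 (DZ) on E28. These values lay close to those of MYF5+ cells of the same library, with a difference of −0.03 ± 0.20 on the log2 scale (SE, adjusted p = 1, edgeR). That comparison called 0.469% of genes, and none of the 4 members was among them. The MYF5+ gate rests on MYOD1 not being detected, so cells whose MYOD1 RNA was missed can lie in it. Their part in the close values was not tested.

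The myocyte gate required 3 or more of the 6 markers present, among them MYOG or MYMK. MSTN there was at 156 (ZZ) and 130 (DZ) on E21 and 104 (ZZ) and 81.0 (DZ) on E28. It exceeded the MYOD1+ value in 3 of the 4 libraries and was below it in E28-ZZ. The fitted difference was 0.95 ± 0.20 on the log2 scale (SE, adjusted p = 0.000701, edgeR), among 32.6% of genes called.

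The 2 E18 libraries already held 137 cells in the myocyte gate, and those had 0 MSTN UMIs among 961212. The limit of 3 counts over both libraries is 3.12 CPM, so the pooled late level of 106 was at least 33.8-fold higher. The test between periods had an adjusted p of 0.00223 (edgeR), and of 0.0634 without E18-ZZ, 0.0615 without E18-DZ and 0.221 at the 5% mitochondrial limit. The 6 markers present summed to 7014 to 7604 in the early myocyte gate and to 10500 to 14280 in the late one. The part of this in the differences between periods within the gate was not tested. In MYF5+ cells MSTN also differed between periods, with 2 UMIs in the early libraries. The pooled late to early ratio there was 137, with a 95% interval of 37.9 to 1137 from counting error, and the fitted difference had an adjusted p of 2.78e-05 (edgeR), where 9.79% of 9257 genes were called.

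**Figure D2:**
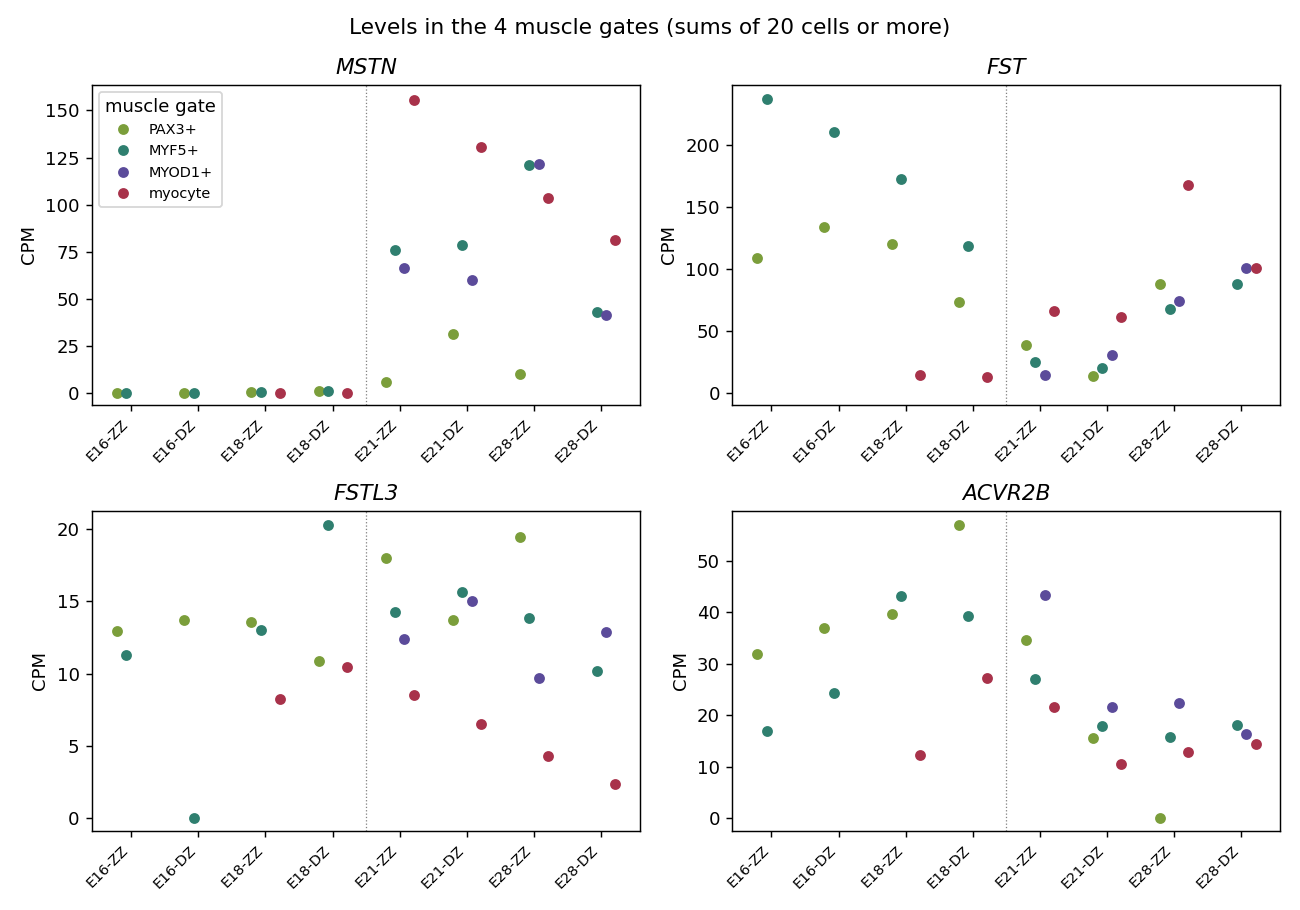
Levels of the 4 genes in CPM (y axis, linear) in each library (x axis), with 1 point for each muscle gate that had 20 cells or more. FST in the myocyte gate (red) lay below MYF5+ cells (dark green) in both E18 libraries and above them in the 4 late ones.

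FST, which binds myostatin and activins, was present in muscle progenitors on E16 and E18, when MSTN was close to absent. In the muscle gates it was at 128 (ZZ) and 138 (DZ) on E16 and 127 (ZZ) and 81.3 (DZ) on E18, and then at 38.5 (ZZ) and 33.2 (DZ) on E21 and 100 (ZZ) and 96.3 (DZ) on E28. The 2 E21 libraries were the lowest, and the E28 ones overlapped the early range. The difference between periods was −0.75 ± 0.37 on the log2 scale (SE, adjusted p = 0.158, edgeR) and did not pass the threshold.

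Separating the gates gave opposite directions. In MYF5+ cells FST was 237 (ZZ) and 210 (DZ) on E16 and 173 (ZZ) and 118 (DZ) on E18, against 24.4 (ZZ) and 19.8 (DZ) on E21 and 67.3 (ZZ) and 87.6 (DZ) on E28. All late values were below all early ones, and the fitted difference was −1.78 ± 0.41 on the log2 scale (SE, adjusted p = 0.0144, edgeR). The call was lost with a mitochondrial limit of 5% (−0.98, adjusted p = 0.357), with 2 UMIs required for a gate (−1.36, adjusted p = 0.228) and without E18-ZZ (−1.80, adjusted p = 0.0610).

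In the myocyte gate FST was 14.4 in E18-ZZ and 12.6 in E18-DZ, and 66.1 (ZZ) and 61.4 (DZ) on E21 and 167.3 (ZZ) and 101 (DZ) on E28. The E18 values rested on 7 UMIs from 55 cells (ZZ) and 6 UMIs from 82 cells (DZ). The floor of 3 UMIs would be 6.19 and 6.30 there. The late libraries were higher by 2.95 ± 0.54 on the log2 scale (SE, adjusted p = 0.0145, edgeR, 4 against 2 libraries), where 6.73% of 9049 genes were called. The difference was 2.81 without E18-ZZ (adjusted p = 0.209), 3.1 without E18-DZ (adjusted p = 0.201) and 3.08 at the 5% mitochondrial limit (adjusted p = 0.367), and the call was lost in each. Leaving out an E18 library left 1 early library, which was assumed to vary like the others. The markers of the myocyte gate summed higher late, as given above. The part of this in the FST difference here, and in the comparison with MYF5+ cells below, was not tested.

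The difference between these stage differences was itself tested over the 6 libraries that had both gates. The stage difference of FST was 4.50 ± 0.49 higher on the log2 scale in the myocyte gate than in MYF5+ cells (SE, adjusted p = 9.48e-05, edgeR). FST was the only member of the 4 called there, among 3.98% of 9090 genes. For MSTN, with 0 UMIs in the E18 myocyte gate, the fit gives no usable size. Within the late libraries FST was higher in the myocyte gate than in MYF5+ cells in 4 of 4, and within E18 it was lower in 2 of 2. At the 5% mitochondrial limit the difference was 4.06 with an adjusted p of 0.178. These 3 comparisons within or between gates were added after the levels had been seen.

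FST was not restricted to muscle. The muscle gates held 19.8% of its UMIs in the early libraries and 33.0% in the late ones. Cells in no gate held 52.9% early and 31.2% late. In all cells it was at 34.6, 47.9, 35.1 and 42.4 in the early libraries in the order named above, and at 16.3, 13.2, 50.6 and 81.3 in the late ones, and the periods overlapped (adjusted p = 0.802, edgeR). The muscle gates were above the other cells in all 8 libraries, by 1.56 ± 0.17 on the log2 scale (SE, adjusted p = 0.000285, edgeR).

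The sclerotome gate, whose cells form the vertebrae and ribs, held FST at 82.9 to 226 in the early libraries and at 6.18 to 15.2 in the late ones, with no overlap. The lateral-mesoderm gate, summed in the early libraries only, held 11.9% of early FST UMIs, at 16.8 to 67.8. In E16-DZ, FST was at 175 in 22 neural progenitors and 106 in 50 cells of the neuron gate. In the connective-tissue gate it ranged from 7.50 in E21-DZ to 106 in E28-DZ. Neural-crest cells had 17.0 (ZZ) and 16.3 (DZ) on E21 and 164 (ZZ) and 57.2 (DZ) on E28, against 0 to 9.01 in the early libraries. The erythroid gate, assumed here to lack FST, ran from 0 to 16.6, and the endothelial gate from 0 to 7.55. The 16.6, in E28-DZ, rested on 5 UMIs from 54 cells. With thinning to 2000 UMIs, 13.8 to 21.2% of early muscle-gate cells held a FST UMI, and 5.87 to 13.6% of late ones. Without thinning these shares were 29.7 to 42.0% and 12.8 to 23.7%, beside 2.08 to 4.05% and 0 to 9.76% in the erythroid gate.

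**Figure D3:**
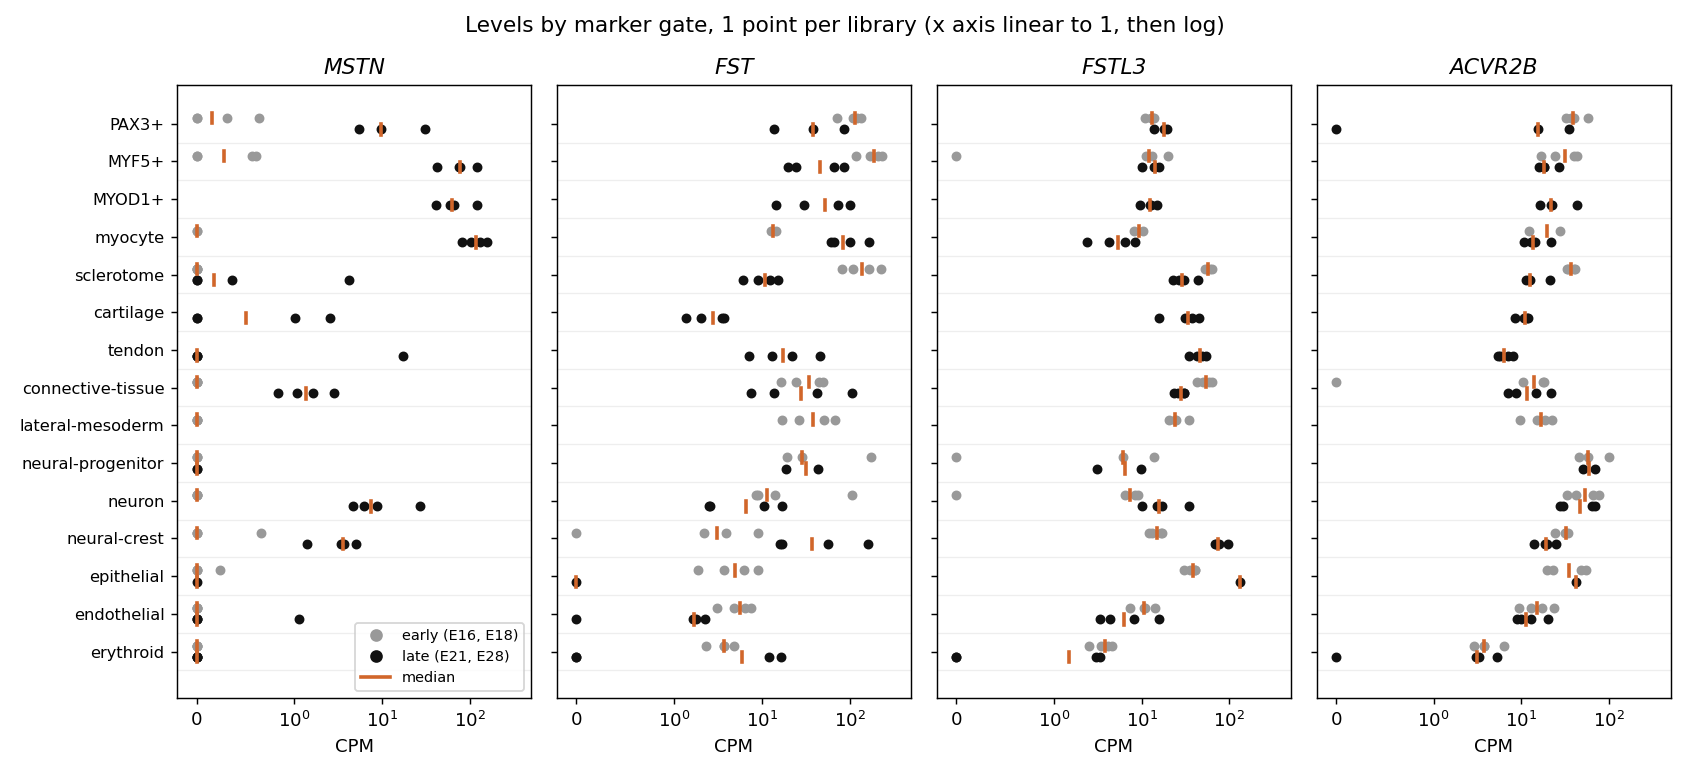
Levels of the 4 genes in CPM (x axis, linear up to 1 and logarithmic above) in each gate (y axis), with 1 point per library of 20 cells or more, early in grey and late in black, and the median as an orange bar. MSTN was at 41.1 or higher in the late MYF5+, MYOD1+ and myocyte gates, and FST in the sclerotome gate was lower in all 4 late libraries than in the early ones.

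FSTL3, the other binding protein, was lower in the muscle gates than in the other cells. In the muscle gates it was at 12.7 (ZZ) and 12.9 (DZ) on E16 and 13.1 (ZZ) and 13.7 (DZ) on E18. The late values were 12.8 (ZZ) and 12.6 (DZ) on E21 and 9.56 (ZZ) and 7.80 (DZ) on E28. The other cells of these libraries were at 19.7 to 28.0, above the muscle gates in 8 of 8 with no overlap. The difference was −0.998 ± 0.11 on the log2 scale (SE, adjusted p = 0.000259, edgeR).

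Both E28 libraries had the lowest muscle-gate values of FSTL3, but the difference between periods was −0.24 ± 0.22 on the log2 scale (SE, adjusted p = 0.452, edgeR). Over all cells it was −0.18 ± 0.14 (SE, adjusted p = 0.350, edgeR). The myocyte gate was lower than MYOD1+ cells in each late library, with 8.51 against 12.4 in E21-ZZ, 6.49 against 15.0 in E21-DZ, 4.30 against 9.69 in E28-ZZ and 2.38 against 12.9 in E28-DZ. The fitted difference of −1.07 ± 0.30 on the log2 scale (SE, adjusted p = 0.00712, edgeR) was not called without E28-DZ (−0.57, adjusted p = 0.261).

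Outside muscle FSTL3 was at 52.7 to 63.5 in the early sclerotome gate and 22.7 to 43.9 in the late one. The connective-tissue gate was at 43.2 to 63.3 early and 23.5 to 30.7 late. The epithelial gate was at 30.85 to 40.69 early and at 131.4 in E21-ZZ, from 28 cells. FSTL3 was at 34.4 to 53.6 in the tendon gate. In the neural-crest gate it was at 12.2 to 17.1 in the early libraries and 67.9 to 96.0 in the late ones. Low levels were not particular to muscle. FSTL3 was at 3.38 to 16.0 in the endothelial gate and 0 to 13.8 in the neural-progenitor gate. In the neuron gate it was at 0 to 34.8, with a median of 9.53. The erythroid gate had at most 4.65. These gate levels are descriptions and were not tested.

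ACVR2B, a receptor that binds myostatin, was lower in the late than in the early sum of the muscle gates, whose mix differed between periods. It was at 29.7 (ZZ) and 35.9 (DZ) on E16 and 38.3 (ZZ) and 48.7 (DZ) on E18, and at 28.1 (ZZ) and 15.9 (DZ) on E21 and 17.0 (ZZ) and 16.2 (DZ) on E28. The periods did not overlap, although E21-ZZ lay just under E16-ZZ. The difference was −0.96 ± 0.21 on the log2 scale (SE, adjusted p = 0.00896, edgeR), and at the 5% mitochondrial limit it was −0.79 with an adjusted p of 0.0904.

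In MYF5+ cells ACVR2B was at 16.9 to 43.1 in the early and 15.9 to 27.2 in the late libraries, and these ranges overlapped. The E16 values of 16.9 (ZZ) and 24.3 (DZ) rest on 3 UMIs each, and without them the E18 values of 43.1 (ZZ) and 39.3 (DZ) lay above all late ones. The fitted difference of −0.90 ± 0.26 on the log2 scale (SE, adjusted p = 0.0473, edgeR) was not called with DESeq2 (−0.85, adjusted p = 0.0605), with median-ratio factors (−0.87, adjusted p = 0.0523) or at the 5% mitochondrial limit (−1.18, adjusted p = 0.0994). It was also not called with library totals without factors, no doublets removed or 2 UMIs for a gate. With 1 library left out its adjusted p reached 0.342 (edgeR). In the myocyte gate it was −0.35 ± 0.44 on the log2 scale (SE, adjusted p = 0.689, edgeR), which did not pass the threshold. Over all cells it was at 17.4, 22.1, 32.1 and 36.8 early and 37.7, 18.8, 11.0 and 11.2 late, a difference that was not called (adjusted p = 0.243, edgeR). E21-ZZ was the highest of all 8. Without E21-ZZ the difference was −1.16 with an adjusted p of 0.0255.

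The muscle gates were 0.46 ± 0.15 above the other cells in ACVR2B on the log2 scale (SE, adjusted p = 0.0593, edgeR), which did not pass the threshold, and they were below them in E21-ZZ and E21-DZ. The highest mean levels over libraries were in the neural-progenitor gate, at 45.01 to 100.1, and the neuron gate, at 27.4 to 77.6. Their ranges overlapped those of other gates, as PAX3+ progenitors reached 56.9 and the epithelial gate 55.0, both in E18-DZ. The neural-crest gate was at 13.8 to 34.4. The neuron gate held 23.6% of all ACVR2B UMIs of the late libraries, and 14.4% without E21-ZZ. The erythroid gate was at 0 to 6.28.

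The breeds were compared within stages. MSTN was not called in all cells (DZ minus ZZ −0.08 ± 0.25 on the log2 scale, SE, adjusted p = 0.972, edgeR) or in the muscle gates (−0.46 ± 0.23, SE, adjusted p = 0.803, edgeR). At E28 its muscle-gate level was 115 in ZZ and 56.9 in DZ, while at E21 it was 89.5 and 88.0, each from 1 library. FST differed by 0.27 ± 0.13 in all cells (SE, adjusted p = 0.801, edgeR) and −0.21 ± 0.13 in the muscle gates (SE, adjusted p = 0.843, edgeR). FSTL3 and ACVR2B differed by −0.19 to −0.06 in these 2 comparisons.

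Over all cells edgeR called 0% of 14337 genes between breeds, with 869 genes at an unadjusted p under 0.05 and 55 genes called by DESeq2. In the muscle gates it called 0.00916% of 10919 genes, with 703 at an unadjusted p under 0.05 and 4 called by DESeq2. With no filter on low counts edgeR called many more genes there, as given in the last section. With 1 library per stage and breed, a difference at 1 stage could not be tested. No member passed the test of whether the stage difference differed between breeds (adjusted p = 1 for each, edgeR).

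The other genes of the pathway were read from a list of 28 ligands, proteases, modulators, receptors, transducers and repressors. Between periods in the muscle gates, 9 of the 22 tested rose and 2 fell (50%, beside 28.5% of all genes called), with a median difference of 0.08 on the log2 scale beside 0.02 over all genes. Within single gates, 5 of 19 rose and 1 fell in MYF5+ cells (31.6%, beside 9.79% of all genes), and 3 of 19 rose and 1 fell in the myocyte gate (21.1%, beside 6.73%). At the 5% mitochondrial limit edgeR called no gene between periods in the myocyte gate, so the calls there were lost. In the sum of the muscle gates ACVR2A, the other activin type II receptor, rose from 15.1 to 22.9 in the early libraries to 75.8 to 166.8 in the late ones (2.64 ± 0.30, log2, SE, adjusted p = 0.000457, edgeR). The periods did not overlap, and the direction was opposite to that of ACVR2B in the same cells.

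WFIKKN1, which encodes a protein that binds the myostatin propeptide, fell from 32.7 to 44.1 in the early libraries to 0.838 to 3.26 in the late ones (−4.66 ± 0.33, log2, SE, adjusted p = 5.73e-05, edgeR). It fell in MYF5+ cells (−4.46, log2) and in the myocyte gate (−5.74, log2) as well. The early myocyte gate came from 2 libraries, and edgeR called no gene in that comparison at the 5% mitochondrial limit. BAMBI, a pseudoreceptor without a kinase domain, fell by 1.30 on the log2 scale in the muscle gates.

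The rises included the extracellular genes DCN, encoding the proteoglycan decorin (4.39, log2), and LTBP3, encoding a latent TGF-β binding protein (4.22, log2), and INHA, the inhibin α subunit (3.32, log2). INHA had 0 UMIs in each E16 library and 2 in each E18 one, under the floor of 3, so its size is uncertain. Of the genes that act inside the cell, SMAD3 (0.86, log2), SMAD7 (1.00, log2), TGIF1 (1.03, log2) and SKIL (1.65, log2) rose, the last 3 being known repressors of the pathway. TGFBR3, a co-receptor, rose by 1.32 on the same scale. DCN is abundant in connective tissue. The 7 connective-tissue markers present summed to 28.4 to 64.1 in the early muscle gates and 178 to 427 in the late ones, against 1320 to 3960 in the connective-tissue gate itself, and their part in the rise was not tested. In the muscle gates the neural-crest markers had the largest sums, at 824 to 1150 early and 841 to 1370 late, against 2060 to 3460 in their own gate. The neuron markers summed to 60.8 to 85.5 early and 169 to 659 late, and the tendon markers to 0.848 to 3.26 early and 10.0 to 27.4 late. Sclerotome markers summed to 28.4 to 52.6 early and 10.2 to 39.4 late. The cartilage markers summed to 98 to 114 early and 26.1 to 32.0 late, and the endothelial markers to 60.9 to 92.4 early and 16.5 to 24.9 late. Neural-progenitor markers were also lower late, at 77.9 to 117 early and 14.7 to 70.7 late, as were epithelial (8.97 to 46.6 and 0.587 to 1.83) and lateral-mesoderm ones (8.97 to 31.2 and 0.503 to 3.1). The part of these cell types in the pathway counts and in the ACVR2B difference between periods was not tested either.

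**Figure D4:**
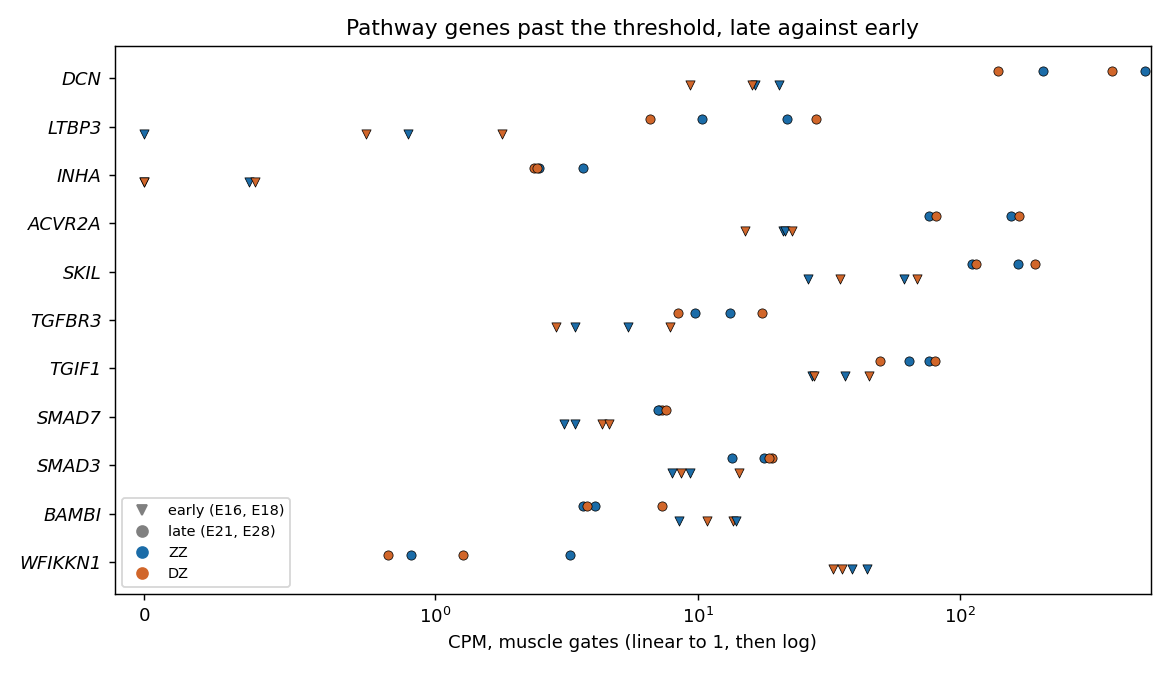
Levels in the muscle gates, in CPM (x axis, linear up to 1 and logarithmic above), of the 11 pathway genes (y axis) that passed the threshold between periods, with early libraries as triangles and late ones as circles, ZZ in blue and DZ in orange. ACVR2A lay at 75.8 or above in every late library and WFIKKN1 at 3.26 or below.

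In all cells, 7 of the 26 pathway genes tested were higher late and 3 lower (38.5%), close to the 34.3% of all genes called. FURIN, which encodes the protease that cleaves the myostatin precursor, fell by 0.94 on the log2 scale. WFIKKN1 (−3.58, log2) and BAMBI (−1.93, log2) also fell, and WFIKKN2 (5.58, log2), LTBP3 (4.18), INHA (1.53), TGFBR3 (1.45), ACVR2A (1.38), SKIL (1.19) and TGIF1 (0.82) rose. WFIKKN2 had 0 to 3 UMIs in each early library, so its size is uncertain. Against the other cells, 1 of 24 tested was higher in the muscle gates and 6 lower (29.2%, beside 19.2% of all genes called). TLL2, of the tolloid proteases that cut the myostatin propeptide, was the higher one (1.04, log2), and BAMBI (−2.57), TLL1 (−3.16), TGFBR3 (−0.88), SMURF1 (−0.85), LTBP3 (−0.82) and BMP1 (−0.26) were lower. TLL1 had 10 muscle-gate UMIs in E28-DZ and 0 to 3 in each other library, so its size is uncertain. Between the myocyte gate and MYOD1+ cells, 3 of 19 were higher (ACVR2A 0.64, SMAD3 0.64 and SKIL 0.59, log2) and 3 lower (DCN −1.22, FSTL1 −0.69 and SMAD2 −0.44, log2), a share of 31.6% beside 32.6% of all genes. No pathway gene was called between MYF5+ cells and PAX3+ progenitors, between MYOD1+ and MYF5+ cells or between breeds. Among all genes, edgeR gave 1715 at an unadjusted p under 0.05 in the first of these comparisons and 663 in the next.

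The genes whose levels followed each member most closely were found over 99 sums of a gate in a library, by Pearson's r of log2(CPM + 1). The sums share libraries and depth, so the values are descriptions. MSTN was followed by DLK2 (r = 0.852), PLPPR4 (0.833) and PARM1 (0.813), and FST by CITED1 (0.685), FLNC (0.598) and MXRA8 (0.582). FSTL3 was followed by UGGT2 (0.771), FRMD6 (0.717), EFEMP2 (0.676) and DACT3 (0.670), and ACVR2B by RCOR2 (0.831), SINHCAF (0.794), PABPN1 (0.773), PATZ1 (0.773) and APEX1 (0.768). The remaining places in the lists of 5 were taken by genes with no symbol in the files. None of those named was a gate marker.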

How the data were processed

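Cells of 8 pools of embryos were sequenced by the authors with 10x Chromium 3′ v3 chemistry, and the deposited UMI counts were made with Cell Ranger on Sscrofa11.1 (version 3.1.0 for E16 and 3.0.2 for the others, per the file headers). Barcodes with under 200 genes, over 30000 UMIs or over 10% mitochondrial UMIs (13 genes) were removed, as were the highest Scrublet scores (scanpy 1.11.5), 0.8% per 1000 barcodes, 8247 in all. Gates came from marker detection. A cell meeting a muscle gate and another gate (1148) was left out of both. UMI counts were summed per library and gate (20 cells or more) and tested with edgeR 4.0.16 (TMM, filterByExpr, quasi-likelihood test, Benjamini-Hochberg over all genes tested), with breed, stage or library as covariate. Simulated counts were used to test the scripts. DESeq2 1.42.0, other factors, filters, gates and leaving out each library were alternatives. Intervals cover counting error only. Named were the 4 members, the pathway genes past the threshold in the muscle gates or between periods, and the 5 genes closest to each member. Members, lists and gates were chosen with earlier results of these data known.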

Additional observations from a re-analysis of the deposited data

Results flagged for a closer look

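Among 24 groups of 4 libraries tested with Dixon's criterion, of which chance would flag about 1 in 20, ACVR2B in the late muscle gates stood apart in E21-ZZ, at 28.1 CPM against 15.9 to 17.0 in the other late libraries. The stage difference of FST differed between gates by 4.50 on the log2 scale (adjusted p = 9.48e-05, edgeR's quasi-likelihood test), being higher in the myocyte gate, where late libraries exceeded early ones, than in MYF5+ cells, where they were lower. This comparison was chosen after the data were seen. Only the 2 E18 libraries gave early myocyte-gate cells, which held 13 FST UMIs in all.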

How the results depend on the processing

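Of 444 values recomputed under a setting other than leaving out a library, 393 kept their direction and side of the threshold (counts of genes, within 1.5 times), 10 changed direction, 14 lost and 7 gained the call, and 20 counts moved further. Of 420 values with a library left out, these numbers were 363, 21, 11, 5 and 20. Library totals without factors, and all settings of the comparisons within single gates, were chosen after seeing the data. The totals moved the median of all genes by 0.17 (log2) between periods in all cells and by −0.26 between the myocyte gate and MYOD1+ cells. The cause was not tested for any change below. Breeds were paired by stage and gates by library in every fit of those comparisons, and the labels give no replicate numbers to pair further.

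Between periods in all cells, MSTN was 0.655 per day (adjusted p = 0.0816) with stage as days. FST was 0.004 with totals and 0.039 per day, and −0.841 to 0.123 on leaving out a library. FSTL3 was −0.504 (adjusted p = 0.0316) at the 5% mitochondrial limit. ACVR2B was −1.162 to −0.430 and the genes called were 2977 (without E16-DZ) to 4595 on leaving out a library.

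Between breeds in all cells, 55 genes were called by DESeq2, 1 with no filter and 1 with no doublets removed. On leaving out a library ACVR2B was −0.273 to 0.122 and MSTN −0.399 to 0.295. In the muscle gates the calls were 2 with totals, 4 with DESeq2, 175 with no filter and 3 at the 5% limit, where ACVR2B was 0.007. On leaving out a library there were 1 to 4 calls, with ACVR2B at −0.221 to 0.138, MSTN at −0.990 to 0.138 and FSTL3 at −0.126 to 0.057.

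For muscle gates against other cells, ACVR2B was called with DESeq2 (0.459), with no doublets removed (0.450) and without E21-ZZ or E21-DZ (0.367 to 0.586 over libraries left out). The calls were 1575 at the 5% limit and 1565 (without E28-ZZ) to 2411. For MYF5+ against PAX3+ cells they were 252 at the 5% limit and 351 (without E18-DZ) to 580, FST was −0.283 with 2 UMIs for a gate, FSTL3 was −0.063 to 0.332 and MSTN 1.589 to 3.203, called in each.

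For MYOD1+ against MYF5+ cells, 135 genes were called with no filter and 26 to 66 on leaving out a library. FSTL3 was −0.016 with totals, −0.020 with no filter and −0.278 to 0.209 over libraries. MSTN was 0.027 and FST 0.095 at the 5% limit, and MSTN was 0.006 with no doublets removed and −0.162 to 0.031 over libraries. For the myocyte gate against MYOD1+ cells, ACVR2B was −0.754 and called with totals, FST was 0.724 with no filter and 0.941 at the 5% limit, both called, and 2139 genes were called with 2 UMIs for a gate. Over libraries FST was 0.392 to 1.040 (called without E18-ZZ, adjusted p = 0.0372), FSTL3 −1.237 to −0.569 (not called without E28-DZ) and ACVR2B −0.801 to −0.416 (called without E28-DZ, adjusted p = 0.0252).

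Between periods in the muscle gates, FST was −0.716 and called with no filter (adjusted p = 0.0448), ACVR2B −0.789 and not called at the 5% limit, and MSTN 0.410 per day (adjusted p = 0.165). In MYF5+ cells ACVR2B was not called with median-ratio factors (−0.869), totals (−0.893), DESeq2 (−0.854), the 5% limit (−1.176), no doublets removed (−0.813) or 2 UMIs for a gate (−1.022), and was −1.084 to −0.689 over libraries. FST was −0.975 at the 5% limit and −1.356 with 2 UMIs, neither called, and −2.316 to −1.492 over libraries, with FSTL3 at −0.304 to 0.389. The calls were 1607 with no filter, 185 at the 5% limit, 335 with 2 UMIs and 430 (without E18-ZZ) to 1198.

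In the myocyte gate the calls were 1360 with no filter, 0 at the 5% limit by edgeR, and 6 (without E18-DZ) to 733. At the 5% limit MSTN was 10.471 and FST 3.080, neither called. Over libraries MSTN was 10.446 to 11.095, FST 2.519 to 3.231 and ACVR2B −0.970 to 0.512, and neither MSTN (adjusted p up to 0.0634) nor FST was called without E18-ZZ or without E18-DZ. With 0 early UMIs, the fitted MSTN values depend on the prior count and are no sizes. For the difference between gates the calls were 226 with DESeq2, 760 with no filter, 28 at the 5% limit, 231 with 2 UMIs and 62 (without E18-DZ) to 469. At the 5% limit FST was 4.055 and not called, and FSTL3 was 6.851.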
